A study of Mus musculus with 94 samples.

Results

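The cells described here are 12 mouse bone marrow cells labelled CD34-positive basophils, those with the lowest level of Prss34, a serine protease gene of basophils. They were chosen by their measured Prss34 reads per 1e6 gene reads (CPM) among the 46 CD34-positive cells with at least 50000 reads over genes, and were set against the other 34. The whole series holds 94 single cells, 47 from a CD34-positive and 47 from a CD34-negative gate, sorted from the marrow of 3 female C57BL/6 mice of an age that is not given. Live cells without lineage markers or Sca1 and with the IgE receptor FcεRI on the surface were sorted in both gates, and the labels name no treatment. Cells are not assigned to mice in the labels, so the CD34-positive gate is 1 sample and no p-value can be given. The groups were cut by a measured value, so all differences below are descriptions of these cells.

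Basophils are rare granulocytes that carry IgE on FcεRI and release histamine, lipid mediators, cytokines and proteases. In the marrow they develop from granulocyte progenitors that carry CD34 and the receptor Kit, under the transcription factors GATA2 and C/EBPα. As they mature they lose CD34 and Kit and gain surface receptors such as CD200R3, while Prss34 and Mcpt8 encode the granule proteases by which mouse basophils are recognised. The question asked of the low cells was whether their other genes look like those of an earlier stage, a later stage or another blood lineage.

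Prss34 (ENSMUSG00000056399) lies on the plus strand at chr17:25298394-25300165 and Cd200r3 (ENSMUSG00000036172) at chr16:44943678-44981380 of GRCm38, the mm10 build. Mcpt8 (ENSMUSG00000022157) lies on the minus strand at chr14:56082166-56085273. The 250 bases before the annotated start of Prss34 and of Cd200r3 are shown because the ranking used the former and the 5 lowest cells lay below all of the other 34 in the latter. The Prss34 window is chr17:25298144-25298393 and the Cd200r3 window chr16:44943428-44943677, both on the plus strand from RefSeq on GRCm38.p6. Capitals mark GATAA, a core motif of GATA factors, or its reverse complement TTATC.
Prss34: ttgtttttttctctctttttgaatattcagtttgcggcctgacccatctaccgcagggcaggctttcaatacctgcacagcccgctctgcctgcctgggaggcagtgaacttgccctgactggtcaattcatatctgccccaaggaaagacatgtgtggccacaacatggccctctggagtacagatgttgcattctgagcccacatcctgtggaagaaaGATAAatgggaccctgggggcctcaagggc
Cd200r3: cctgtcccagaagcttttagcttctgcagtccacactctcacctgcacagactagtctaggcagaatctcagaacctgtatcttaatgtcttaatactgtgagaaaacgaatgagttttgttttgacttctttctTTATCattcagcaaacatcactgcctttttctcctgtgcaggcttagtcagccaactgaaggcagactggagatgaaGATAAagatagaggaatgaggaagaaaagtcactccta
GATAA on either strand was found 1 time before Prss34, 30 bases from the start. It was found 2 times before Cd200r3, at 115 and 38 bases. The motif TTGCNNAA, one form of a C/EBP site, was found 1 time before Cd200r3 and 0 times before Prss34. Of 27025 promoter windows of 250 bases, 23.0% held GATAA and 9.55% held TTGCNNAA, so a match describes the letters and nothing more.

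Prss34 ran from 50.1 CPM in CD34-positive cell 1 to 40359 CPM in cell 21 among the 12 low cells, and from 40403 to 118824 CPM in the other 34, with a median of 70425 CPM. The cut fell inside a continuous range, since the cells just inside it had 38737 and 40359 CPM and those just outside 40403 and 41784 CPM. A wider gap lay lower down. The 5 lowest cells, numbered 1, 40, 41, 35 and 6 in the labels, had 50.1, 216.8, 988.5, 1001 and 2716 CPM, and the next cell had 18679 CPM. These 5 cells and the next 7 are therefore given separately below, a split chosen after the values were seen. Low Prss34 was common in the CD34-negative gate, where 35 of 46 cells lay below the highest of the 12 low cells and 18 lay at or below the highest of the lowest 5.

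**Figure D1:**
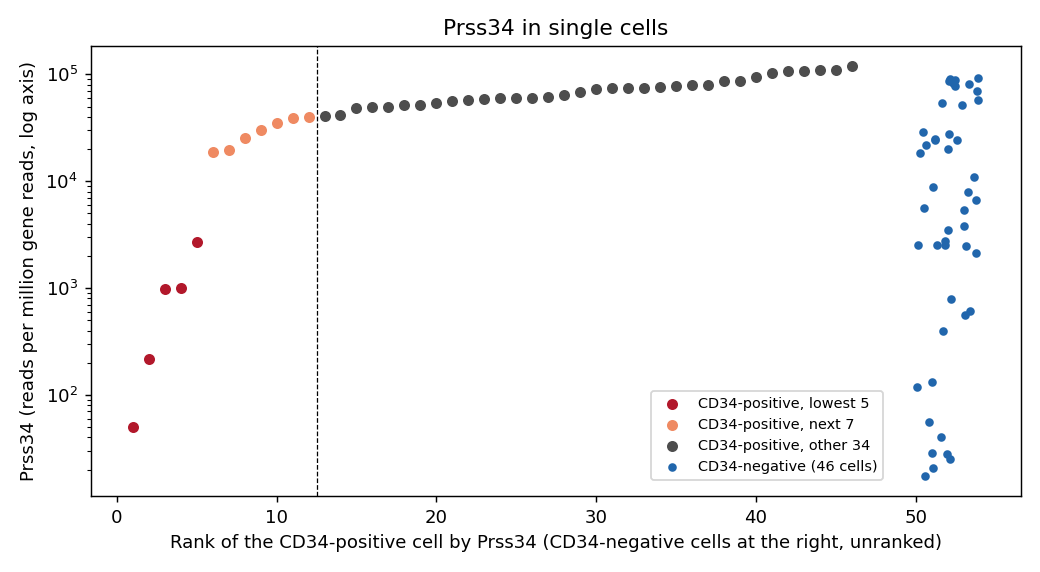
Prss34 in reads per 1e6 gene reads (log axis) for 46 CD34-positive cells in rank order, with 46 CD34-negative cells unranked at the right. The dashed line marks the cut after the 12 lowest cells, and the 5 lowest cells lie at 2716 CPM or less, apart from the next 7 at 18679 CPM and above.

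Gene reads per cell ranged from 388521 to 757052 in the low cells (median 584702) and from 374011 to 1154738 in the others (median 665040). All levels below are CPM over gene reads without Prss34, and a log2 difference compares equal-weight means of CPM plus 1. Some library measures moved with the ranking. Reads that fell on more than 1 gene had a median of 25.6% of gene reads plus these ambiguous reads in the low cells and 18.5% in the others, and mitochondrial genes took 2.69% against 1.97%. In mitochondrial share 5 low cells lay above every one of the other 34, whose highest was 3.09%. They were cell 1 at 5.74%, cell 35 at 4.58%, cell 38 at 4.20%, cell 2 at 3.93% and cell 6 at 3.57%, so 3 of the 5 lowest were among them. The median without these 5 cells is given beside most lists. Cells 1 and 2 also stood apart with 2.93 and 4.86 gene reads per ERCC spike-in read, against 6.87 to 26.2 in the other 34, and with 49.0% and 41.5% ambiguous reads. The part of these measures in the differences was not tested. Cells 40 and 41, both among the 5 lowest, lay inside the range of the other 34 for reads per ERCC read (17.6 and 20.4) and for ambiguous reads (16.4% and 19.5%). Of the cells numbered 1 to 6 in the labels, 4 were low and 1 was not.

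Of 10796 genes with reads in at least 10 of the 46 cells, 1224 (11.3%) were at least 2-fold higher in the 12 low cells and 1405 (13%) at least 2-fold lower. No gene separated the groups without overlap (0 genes, 0%). Between the 5 lowest cells and the other 41, 1543 genes (14.3%) were at least 2-fold higher and 2467 (22.9%) lower. Mcpt8 and Ets1 were the 2 genes (0.0185%) in which every one of the 5 lowest cells lay below all 41 others. These shares are the background for the counts of each gene group. Absence from the 5 lowest cells was common too. Of the 10796 genes, 341 had 0 reads in the 5 and more than 3 reads in the other 41. In the other 41, 201 of these were at 10 CPM or more.

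The granule and mediator genes were lower in the low cells. Of 7 measured genes of the list, 5 were at least 2-fold lower and 0 higher, with a median log2 difference of -1.12, against 0.01 over all genes. In the 5 lowest cells the median was -1.99. Without the 5 cells high in mitochondrial share it was -0.66 for the 7 cells left of the 12, and -1.39 for cells 40 and 41, the 2 left of the lowest 5. Mcpt8, the basophil granule protease, had 13.4, 526.6, 17.1, 4091 and 454 CPM in cells 1, 40, 41, 35 and 6, while the next 7 cells had 5173 to 23382 CPM and the other 34 had 7914 to 43576 CPM (median 29204). The 5 lowest cells were thus low in both proteases. The next 7 lay in the lower part of the range of the other 34 or just below it, and the log2 difference of all 12 was -1.67. Across the 34 other cells, which the cut did not separate, Prss34 and Mcpt8 still ranked together with a Spearman rho of 0.78, given as a description of cells that share a plate. Cd200r3, described below, did not rank with them in those 34 cells, with a rho of 0.14 to Prss34 and -0.0014 to Mcpt8.

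Cpa3, the carboxypeptidase shared with mast cells, had 230 to 2974 CPM in the 5 lowest cells, 1318 to 4345 CPM in the next 7 and 1795 to 15425 CPM in the others, with a log2 difference of -1.39 for the 12. Its ranges overlapped. Alox5, the 5-lipoxygenase of leukotriene synthesis, and its partner Alox5ap differed by -1.21 and -1.12. Cyp11a1, a steroid side-chain cleavage enzyme, was split within the low cells, with 0 to 82.2 CPM in the 5 lowest and 63.7 to 1061 CPM in the next 7, beside 30.3 to 1612 CPM in the others. Hdc, which makes histamine, differed by -0.02 and Srgn, the granule proteoglycan serglycin, by 0.24. Their low-cell medians were 652 and 2069 CPM, against 656 and 1719 CPM in the others. So 2 granule-related genes did not share the pattern of the proteases.

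All 3 chains of the IgE receptor were read in all 12 low cells. Fcer1a, the IgE-binding chain, had a low-cell range of 167 to 5100 CPM (median 987) and 1108 to 8715 CPM (median 3178) in the others, a log2 difference of -1.37. Fcer1g, the shared signalling chain, differed by -1.03. Ms4a2, the β chain, had 1303 to 4276 CPM in the 5 lowest cells, inside the 1156 to 5461 CPM of the other 34, and a log2 difference of -0.14. The count was 2 of 3 chains at least 2-fold lower, and the median without the 5 cells high in mitochondrial share was -0.86. Transcripts of the sorted receptor were thus read in each low cell.

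Among 12 genes of basophil identity, 2 were at least 2-fold lower in the 12 low cells and 0 higher, with a median of -0.44. In the 5 lowest cells 6 were lower and 1 higher, with a median of -1.13. Without the 5 cells high in mitochondrial share these medians were -0.17 and -0.67. Gata2, which encodes the lineage's GATA factor, had 692 to 2843 CPM in the low cells and 641 to 3679 CPM in the others, and its log2 difference was -0.32. Il1rl1, the IL-33 receptor, was at 191 to 366 CPM in the 5 lowest cells, above the median of 130 CPM in the other 34. Lmo4, a LIM-domain cofactor, was at 819 to 1564 CPM in the 5 lowest, with a median of 306 CPM in the others and a log2 difference of 0.94 for the 12. Gata2, Il1rl1 and Lmo4 were thus read in each of the 5 lowest cells. Of the 12 genes of the list, 9 had a log2 difference below 0 in the 5 lowest and 3 above.

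Cd200r3, an activating receptor of basophils, was lower, with a log2 difference of -1.70 for the 12 and overlapping ranges. Its level was 1.67, 17.5, 7.58, 4.41 and 4.60 CPM in the 5 lowest cells, in the order 1, 40, 41, 35 and 6. The next 7 cells had 5.31 to 2508 CPM with a median of 569 CPM, and the others had 62.3 to 3434 CPM with a median of 1504 CPM. The 5 lowest cells stood below every one of the other 34, and cell 38, which had 30395 CPM of Prss34, lay among the 5 with 5.31 CPM. Summed over the 5 cells there were 22 reads of Cd200r3, or 7.98 CPM with an exact Poisson 95% interval of 4.9996 to 12.1 CPM. Il18r1, the IL-18 receptor chain, had 0 reads in all 5 and was read in 26 of the other 41 cells at equal depth. Il1rap, the shared IL-1 family co-receptor, reached at most 1.90 CPM in the 5, and 348.7 CPM in the others.

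Ets1, a transcription factor singled out after its values were seen, had 1.67 to 85.9 CPM in the 5 lowest cells. The next 7 had 154 to 1757 CPM and the other 34 had 192 to 2243 CPM, so that the groups of 5 and 41 did not overlap. Alox15, a 12/15-lipoxygenase, had 0 reads in the 5 cells and was read in 39 of 41 others at 200000 reads per cell. With a floor of 3 reads over the 5 cells it was at least 466-fold lower there. Alox12e, a neighbouring type of lipoxygenase, also had 0 reads in the 5 and was at least 191-fold lower, although 10 of 41 other cells had no read of it at that depth. The chemokine receptor Ccr1 had 0, 2.69, 1.90, 17.6 and 0 CPM in the 5, and a median of 449 CPM in the other 41. None of these genes was low across the next 7 cells as a set, whose medians were 834 CPM for Ets1, 280 CPM for Alox15 and 304 CPM for Ccr1.

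**Figure D2:**
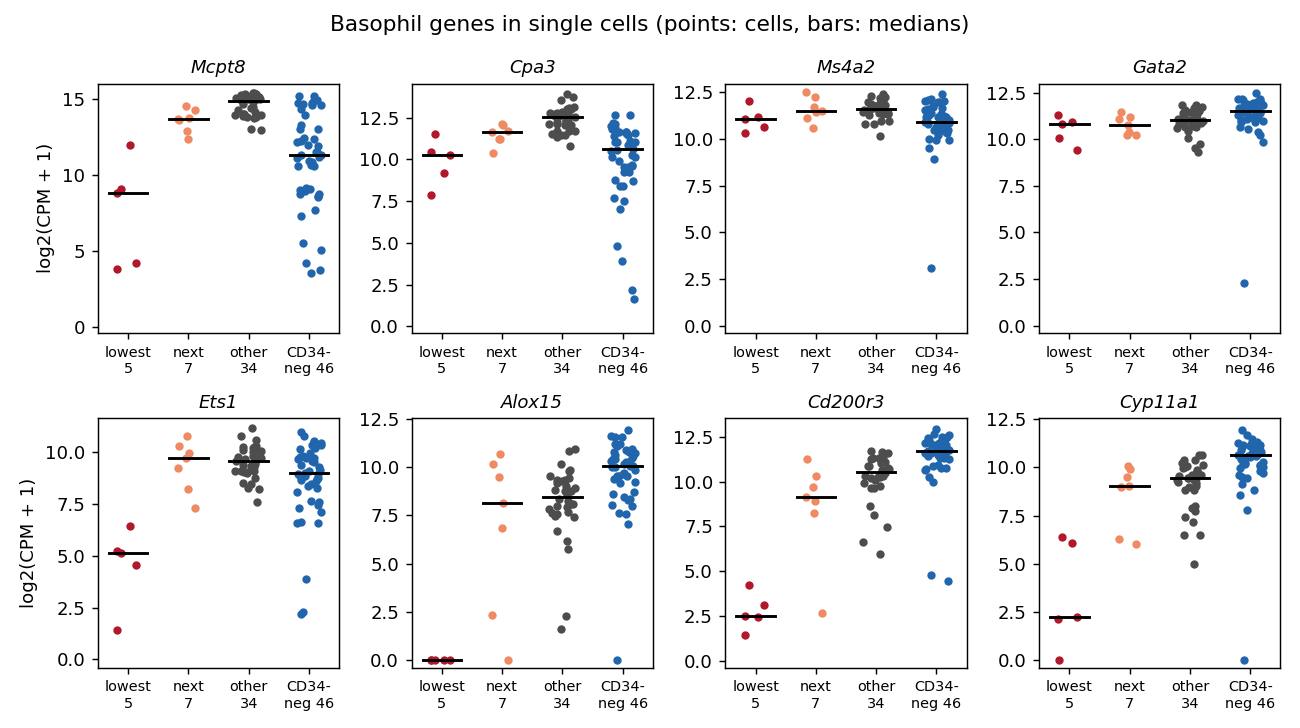
Levels of 8 basophil genes as log2(CPM + 1) in the 5 lowest, next 7 and other 34 CD34-positive cells and in 46 CD34-negative cells, where points are cells and bars are medians. Mcpt8, Ets1, Alox15, Cd200r3 and Cyp11a1 are lowest in the 5 cells, while Ms4a2 and Gata2 lie at similar heights in all CD34-positive sets.

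Genes linked to mature basophils were also lower. Of 12 measured genes, 7 were at least 2-fold lower in the 12 low cells and 0 higher, with a median of -1.66, and 9 were lower in the 5 lowest, with a median of -2.19. Without the 5 cells high in mitochondrial share the medians were -1.31 and -1.65. The median for the 12 was -0.34 when group medians of CPM replaced means, and -0.98 without the cell with the highest level of each gene. The other 6 of the 18 listed genes had reads in too few cells. Ccl3, a chemokine, had 1 read in the 5 lowest cells together and a level in the other 34 of 0 to 3094 CPM with a median of 22.1 CPM. Ccl6 had 0 to 23.0 CPM in the 5, a median of 4.61 CPM over the 12, and 5.17 CPM in the others. Its log2 difference of -3.50 rested on high levels in some of the other cells, up to 4258 CPM. Ccl9 was at 851 CPM in cell 40 and 605.5 CPM in cell 27, so some low cells did carry a chemokine of this list. Hgf, a growth factor, had 4.41 to 148 CPM in the 5, near or below the lowest value of 120 CPM in the others.

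The size of this difference depended on where the cut was placed. The cells at ranks 14 and 16, just outside it, had 4258 and 952 CPM of Ccl6, 365 and 851 CPM of Ccr2, and 168 and 1054 CPM of C3ar1, a complement receptor. They also had 3.13 and 0 CPM of the progenitor peroxidase gene Mpo. With the 16 lowest cells in place of 12 the median of the mature list was -0.20. Ccl6 and Ccr2 were then higher in the low cells, with log2 differences of 1.74 and 2.05, and C3ar1 was near 0 at 0.053. None of the 12 had more than 1.90 CPM of C3ar1. The summed level of the mature list was 373 to 1961 CPM in the 5 lowest cells, with a median of 2010 CPM in the other 34 and 14940 CPM in the CD34-negative gate.

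Stem and progenitor genes were higher in the low cells. Of 12 measured genes, 7 were at least 2-fold higher and 0 lower, with a median of 1.28, and 9 were higher in the 5 lowest with a median of 1.84. Below 0 were 2 genes in the 12 low cells, down to -0.53, and 3 genes in the 5 lowest, down to -0.90. The medians were 1.14 and 1.55 without the 5 cells high in mitochondrial share. The summed level of the list was 4636, 3153, 3928, 2853 and 3152 CPM in cells 1, 40, 41, 35 and 6. The other 41 cells ranged from 234 to 3184 CPM with a median of 1380 CPM. Cells 1 and 41 lay above that range, and cells 40, 35 and 6 in its upper end.

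Sox4, a transcription factor of blood progenitors, had 1076, 404, 294, 128 and 46.04 CPM in the 5 lowest cells. At equal depth it was read in 5 of 5 of them (100%, exact Clopper-Pearson 95% interval 47.8% to 100%), in 4 of the next 7 and in 13 of 34 others (38.2%, 22.2% to 56.4%). It was read in 2 of 46 CD34-negative cells. Cd27, a progenitor surface receptor, was read in 5 of 5, 2 of 7 and 7 of 34 cells, and its log2 difference for the 12 was 2.06. Meis1, a homeobox factor, had 0, 246, 334, 423 and 203 CPM in the 5 and a median of 8.55 CPM in the others. Myb, a regulator of progenitor growth, had 205 to 870 CPM in the 5, 0 to 719 CPM in the next 7 and 0 to 685 CPM with a median of 202 CPM in the others. The intervals on shares treat cells as the units and cover no difference between mice.

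Cd34, the marker of the gate, was read in all 5 lowest cells at 6.68, 424, 288, 19.8 and 92.1 CPM. It was read in 3 of the next 7 and in 20 of the other 34 cells. Its log2 difference for the 12 ranged from 0.011 to 0.77 when each low cell was left out. Kit, the stem cell factor receptor, had 0, 268, 669, 333 and 564 CPM in the 5 lowest, and its level in the others was 0 to 510 CPM with a median of 0. Over the 12 it was read in 10 cells (83.3%, 51.6% to 97.9%), against 15 of 34 (44.1%, 27.2% to 62.1%). Cell 1 was the exception in the lowest set, with no read of Kit or Meis1. The same cell held 2146 CPM of Myc, and the log2 difference of Myc was 2.06 over the 12 and 1.03 without cells 1 and 2. Without those 2 cells the progenitor list median was 1.20, Sox4 stood at 1.88 and Kit at 1.67.

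The next 7 cells were mixed in these genes. Cell 38 had 504 CPM of Kit, 151 CPM of Meis1 and 5.31 CPM of Cd200r3, while cell 2 had 0 CPM of Kit, Sox4 and Cd34 and 2508 CPM of Cd200r3. Cell 17 had 304 CPM of Kit and 249 CPM of Sox4 beside 569 CPM of Cd200r3. The summed progenitor list of these 7 cells ran from 607 to 2965 CPM with a median of 1670 CPM.

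Primary granule genes, which encode the proteins of the first granules formed in myeloid progenitors, had no common direction as a list. Of 8 genes, 1 was at least 2-fold higher and 0 lower, with a median of -0.33. Mpo, the myeloperoxidase gene, had 1449, 199, 8246, 4289 and 4165 CPM in the 5 lowest cells and a median of 2417 CPM (0 to 10512 CPM) in the others. Prtn3, proteinase 3, was the member that was higher, at 0, 0, 618, 317 and 216 CPM in the 5. It was read in 8 of 12 low cells and 8 of 34 others, and its log2 difference was 2.76. Ctsg, cathepsin G, had medians of 2322 and 3938 CPM and a log2 difference of -0.48. In the CD34-negative gate the median was 1.32 CPM for Mpo and 4.47 CPM for Ctsg, yet 14 of 46 cells had a read of Mpo and 28 of 46 a read of Ctsg at equal depth, and Ctsg reached 2944 CPM.

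**Figure D3:**
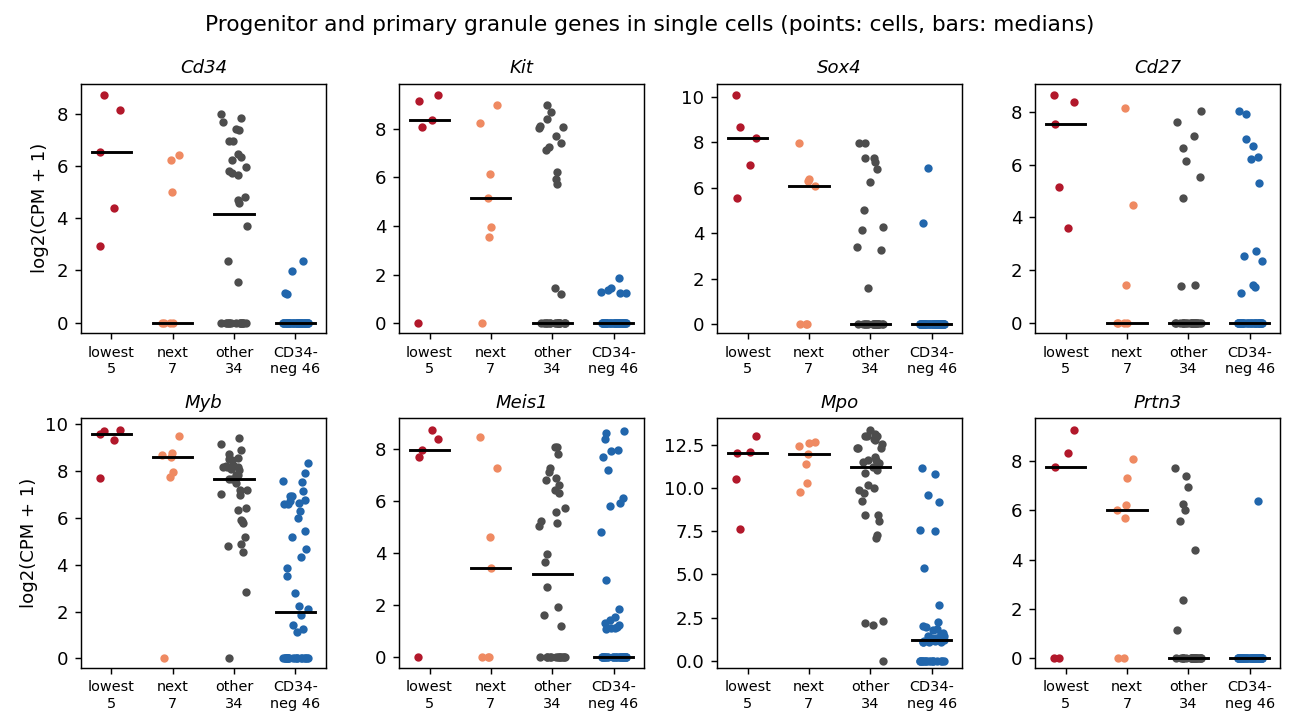
Levels of 6 progenitor genes and 2 primary granule genes as log2(CPM + 1) in the 5 lowest, next 7 and other 34 CD34-positive cells and in 46 CD34-negative cells, where points are cells and bars are medians. Sox4, Cd27, Cd34 and Myb are read in all 5 lowest cells, and cell 1 is the point at 0 for Kit and Meis1.

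Lineage factors and growth genes were described next. Of 13 measured transcription factors of the blood lineages, 1 was at least 2-fold higher and 2 lower, with a median of -0.29. Gfi1, a transcriptional repressor needed for granulocyte development, was read in 1 of 12 low and 10 of 34 other cells at equal depth. Gata1 was at 23.4 to 192 CPM in the 5 lowest and at 0 to 59.7 CPM in the next 7, so that the log2 difference was -1.02 for the 12 and 0.23 for the 5, the latter ranging from -0.18 to 0.48 when each of the 5 was left out. Of 18 genes of ribosome biogenesis, 6 were at least 2-fold higher and 1 lower, with a median of 0.70, or 2.54 when group medians of CPM replaced means. Wdr12, a ribosome assembly factor, was read in 11 of 12 low and 13 of 34 other cells. Npm1, nucleophosmin, had 286 to 562 CPM in the 5 lowest and a median of 128 CPM in the others.

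Cell cycle genes differed between single low cells. At 200000 reads per cell, G2/M genes with a read numbered 52 of 52 in both cells 35 and 6, 38 in cell 4 and 11 to 25 in the other 9 low cells, while the other 34 had 9 to 52 with a median of 17. Cells with many G2/M genes were therefore found in both sets. In the 5 lowest cells 24 of 45 measured G2/M genes were at least 2-fold higher, with a median of 1.14. That median was 0.41 without cell 35, 0.74 without cell 6 and -3.80 in cells 40 and 41 alone, so its direction rested on cells 1, 35 and 6. In the 12 cells it was 0.36, with 3 genes higher and 0 lower, and -0.75 without the 5 cells high in mitochondrial share. By mean level S phase genes went the other way in the 5 lowest, where 25 of 41 were lower and 1 higher with a median of -1.41. The number of S phase genes with a read at 200000 reads was not lower. Its median was 25 (10 to 31) in the 5 lowest, 31 in the next 7 and 23 (6 to 41) in the other 34. Rrm2, the ribonucleotide reductase subunit made for DNA synthesis, had 0 reads in the 5 and was at least 119-fold lower there. In the 12 cells the S phase median was -0.35, with 4 genes higher and 5 lower.

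**Figure D4:**
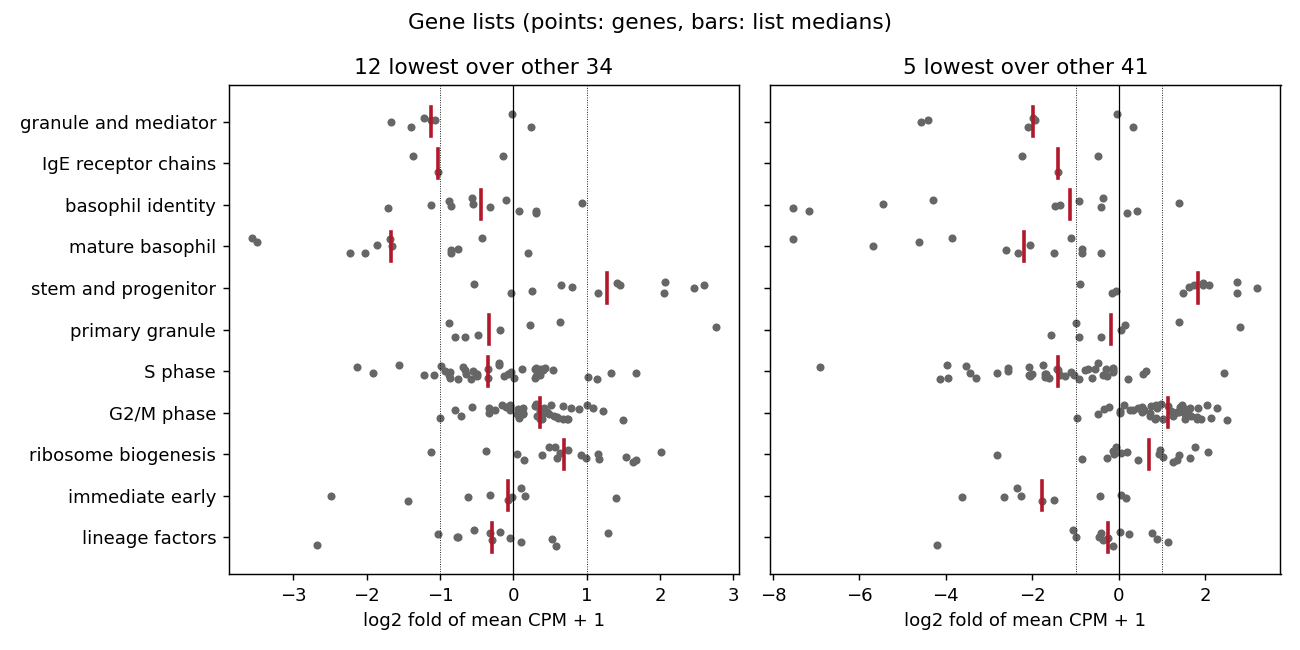
Log2 differences of the measured genes of 11 lists (points) and the list medians (bars) for the 12 lowest against the other 34 cells (left) and the 5 lowest against the other 41 (right), with dotted lines at 2-fold. The stem and progenitor list has medians of 1.28 and 1.84, and the mature basophil list -1.66 and -2.19.

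The immediate early genes, which respond within minutes to handling or stimulation, had a median of -0.08 in the 12 cells, with 1 gene higher and 2 lower of 9, and of 0.62 without the 5 cells high in mitochondrial share. In the 5 lowest the median was -1.79, with 6 lower and 0 higher. Their summed level was 32.2 to 627 CPM in the 5 lowest and 1.30 to 2730 CPM in the other 34, so the ranges overlapped throughout.

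Many genes of other blood lineages had 0 reads in the low cells. Several had no read in any of the 46 CD34-positive cells, namely 4 of 9 mast cell, 6 of 10 neutrophil and 7 of 10 erythroid genes. Of 9 mast cell genes, Cma1, Mcpt1, Mcpt2, Mcpt4, Mrgprb1, Mrgprb2 and Tpsab1 had 0 reads in all 12, and Tpsb2 had 1.66 CPM in cell 45. Slc18a2, a vesicle amine transporter, was the exception, at 124 to 1108 CPM, and it was read in all 34 other cells too. The neutrophil genes Camp, Cebpe, Fcnb, Ltf, Mmp8, Ngp and Retnlg had 0 reads in the 12, and Lcn2 was lower than in the others with a log2 difference of -1.94. The 4 globin genes, the platelet genes Pf4 and Ppbp, and Cd3d, Cd3e, Cd3g and Pax5 also had 0 reads in the 12. The summed neutrophil list was 0 to 109 CPM in the low cells and 0 to 513 CPM in the others, and the T, NK and innate lymphoid list 0 to 58.8 CPM against 0 to 794 CPM. Median sums were higher in the low cells for the erythroid list (40.1 against 0 CPM) and the eosinophil list (106 against 1.52 CPM). They were also higher for the monocyte and dendritic cell list (18.5 against 1.86 CPM) and the mast cell list (669 against 484 CPM). The megakaryocyte list had medians of 723 against 1001 CPM, and the B cell list 0 against 5.02 CPM.

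Other genes of these lists were read in low cells. Itga2b, an integrin chain of megakaryocytes, was read in 11 of 12 low cells at up to 1244 CPM (median 719) and in all 34 others, with a median of 999 CPM and a log2 difference of -0.76. Vwf, von Willebrand factor, had 94.7 CPM in cell 35 and at most 7.96 CPM in the other 11, so its log2 difference was 2.17, and 0.44 without cell 35. Gp1bb had 82.9 CPM in cell 6 and Gp9 33.7 CPM in cell 40. Siglecf, a receptor of eosinophils, was read in all 5 lowest cells at 50.7 to 339 CPM, in 3 of the next 7 and in 11 of 34 others. The eosinophil granule gene Prg2 reached only 2.20 CPM in the low cells, and Epx reached 2.65 CPM. Among the 46 cells Ear2 was read in cell 6, at 50.6 CPM. Klf1, an erythroid factor, had 272 CPM in cell 6 and 224 CPM in cell 17, and at most 64.4 CPM in the other 10 low cells. Epor, the erythropoietin receptor, had 368 CPM in cell 2 and 263 CPM in cell 4. Cx3cr1, a monocyte receptor, had 311 CPM in cell 35 and 141 CPM in cell 45, while Csf1r, Cd74 and Ly6c2 had 0 reads in the 12. The log2 differences of the 12 were 3.35 for Cx3cr1, 2.18 for Klf1 and 1.45 for Siglecf, each the 1 measured gene of its list. Leaving out each low cell gave 2.20 to 3.47, 1.53 to 2.31 and 1.17 to 1.58. Cell 6 held Ear2, Klf1 and Epor together, and Epx, Prg2 and the globin genes were at 0 in it.

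Genes outside the lists were named by size and by detection in at least 50% of the higher group. Slc4a8, a bicarbonate transporter, was read in 7 of 12 low cells and 7 of 34 others, with a log2 difference of 4.09. It was read in all 5 lowest cells at 37.4 to 188 CPM. Rab38, a small GTPase of lysosome-related organelles, was read in the same 5 cells at 66.8 to 310 CPM and in 5 of 34 others. Tmem176b, a membrane protein gene of immune cells, had 46.3 to 389 CPM in the 5 and was read in 5 of 34 others. The other genes named as higher were Usp40, Hist1h2be, Stambp, Gm12418, Dimt1, Pkd2, 2610011E03Rik, Ric1 and Gm42993. Their log2 differences lay between 2.71 for 2610011E03Rik and 4.09 for Hist1h2be.

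Of the genes named as lower, Igfbp7, C3ar1, D430036J16Rik and Gm13185 had 2 or 3 reads in the 12 low cells, too few to fix their order. Igfbp7, a secreted growth factor binding protein, had 2 reads in the 12 cells and was read in 22 of 34 others, whose median was 69.2 CPM. C3ar1 had 3 reads in the 12 and was read in 17 of 34 others. Prkcb, a protein kinase C isoform, was read in 3 of 12 and 19 of 34 cells, with a log2 difference of -3.56. Dhrs3, a retinal reductase, was read in 4 of 12 and 29 of 34 cells. Ly9, a SLAM family receptor, was read in 3 of 12 and 19 of 34 cells, with a difference of -3.17. The others were Nlrc3, Mgat1, Ftsj1, Tjp3 and Gm45713. Gm-numbered and Rik gene models can share reads with neighbouring or antisense genes, and these counts cannot separate them.

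By the same rule for the 5 lowest cells, Deptor, an inhibitor of mTOR signalling, led the higher genes with 300, 176, 51.2, 0 and 48.3 CPM in cells 1, 40, 41, 35 and 6. It reached at most 20.5 CPM in the other 41. Slc4a8, Rab38, Tmem176b and Gm42993 were named again, beside Mrpl2, Gm15657, Il31ra, Ifi203, Mc5r, Mgmt and Gtf2h4. Among the lower genes were Pld3, with 1 read in the 5 cells and a median of 147 CPM in the other 41, and Sorl1, with 1 read and a median of 186 CPM. Atp1b1, Naprt and Baiap3 were among the 341 genes with 0 reads in the 5, and Gm49339 had 3 reads there.

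The low cells held no fewer genes. At 200000 reads per cell, with Prss34 left out, the median was 7149 genes in the 12 low cells (4114 to 8784) and 6318 in the others (4667 to 7660). The CD34-negative median was 4524. Cells 40, 41, 35 and 6 had 7451, 8061, 8322 and 8784 genes, the last 3 above every one of the other 34. Cells 1 and 2 had 4114 and 4714 genes, and so the lowest-ranked cell was also one with few gene reads per ERCC read. Without thinning the medians were 7977 and 7277 genes. The Spearman rho between a cell and the median CD34-negative profile, across genes that are not independent replicates, had a median of 0.45 in the low cells and 0.52 in the others.

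**Figure D5:**
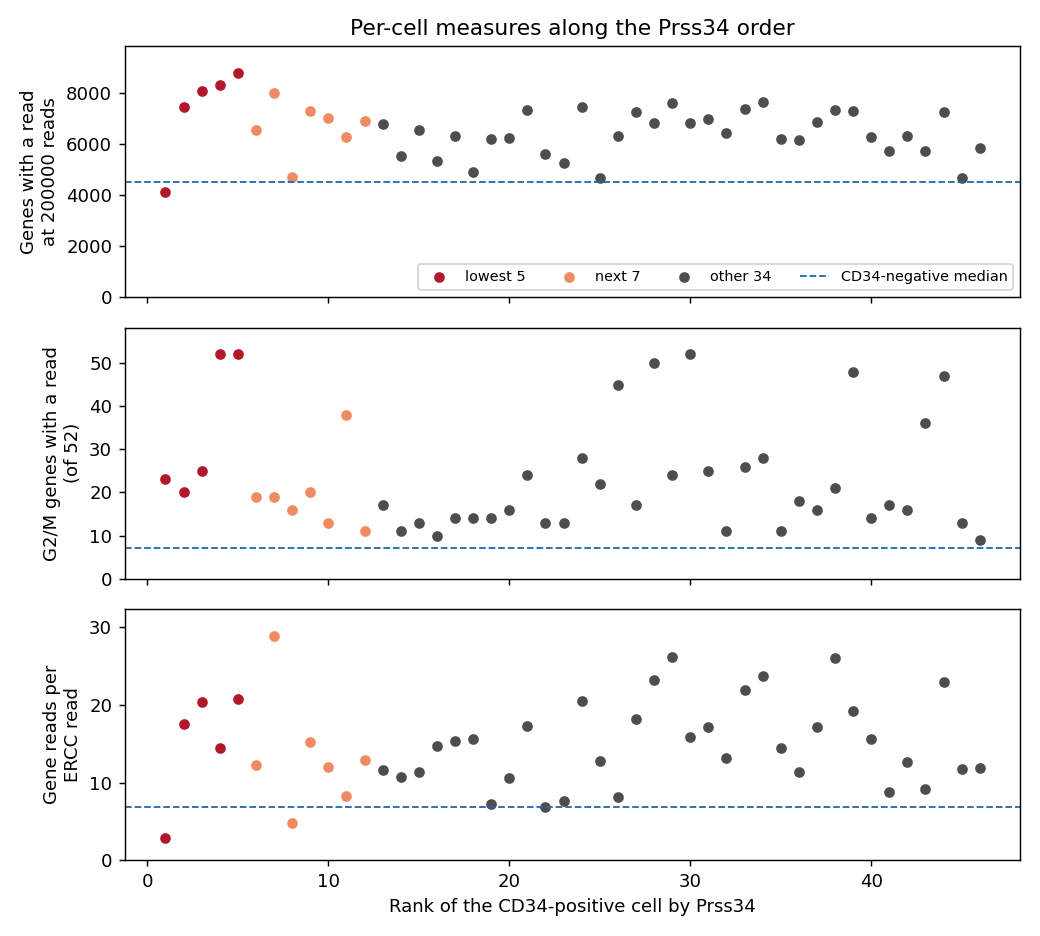
Genes with a read at 200000 reads, G2/M genes with a read, and gene reads per ERCC read for 46 CD34-positive cells in Prss34 order, with the CD34-negative median as a dashed line. Cells 1 and 2, at ranks 1 and 8, are the lowest of the 12 in the upper and lower panels, at 4114 and 4714 genes and at 2.93 and 4.86 gene reads per ERCC read.

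The 5 lowest cells were last set beside the 18 CD34-negative cells with no more Prss34 than they had. CD34-negative cell 10, one of the 18, stood apart with 12274 CPM of Cd74 and 3549 CPM of H2-Aa, antigen presentation genes with 0 reads in the other 17, and with 3.80 CPM of Gata2 against at least 929 CPM in them. Mcpt8 was alike, with a median of 454 CPM (13.4 to 4091) in the 5 and 434 CPM (10.6 to 2552) in the 18. Cd200r3 was at 1.67 to 17.5 CPM in the 5 and at 20.6 to 7994 CPM, median 3242 CPM, in the 18, without overlap. Ccl6 had at most 23.0 CPM in the 5 and at least 616 CPM in the 18, and C3ar1 at most 1.90 CPM against at least 80.1 CPM. In the other direction, Sox4 was read in 5 of 5 and 0 of 18 cells, Prtn3 in 3 of 5 and 0 of 18, and Kit in 4 of 5 and 1 of 18. Mpo had at least 199 CPM in the 5 and at most 2.06 CPM in the 18. Without CD34-negative cell 10 the lowest Ccl6 level was 1939 CPM, and the lowest Cd200r3 and C3ar1 levels were the same. The other 34 CD34-positive cells had medians of 5.17 CPM for Ccl6, 1.89 CPM for C3ar1 and 1504 CPM for Cd200r3. Low Ccl6 and C3ar1 were thus not particular to the 5. The genes set beside the 18 were picked, and genes without overlap were not counted over all genes.

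Summed over lists, the mature basophil genes had medians of 996 and 20697 CPM in the 5 and the 18, and the stem and progenitor genes 3153 and 672 CPM. The medians of the 17 without cell 10 were 20845 and 832 CPM. At equal depth the median number of detected genes was 8061 in the 5 and 3920 in the 18. Cells with little Prss34 and Mcpt8 in the 2 gates thus differed in these lists. The gates were set by CD34 itself, and mouse and gate cannot be told apart from cell state here.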

How the data were processed

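Single cells labelled as basophils, from the marrow of C57BL/6 mice, were sequenced by a Smart-seq2-type protocol on polyadenylated RNA with ERCC spike-in RNA. The authors deposited whole-number read counts per gene and cell, not normalized. Reads were aligned with GSNAP to mm10 and counted with HTSeq 0.5.3p3, per the submitters' processing notes. The annotation release and strand setting are not given in the sources used here, so antisense and overlapping genes are uncertain. Reads carry no molecular identifiers, and intervals cover counting error only. ERCC sequences (3.97% of reads) and HTSeq's summary categories (63.6%) were left out of library sizes. The 46078 gene identifiers included 45143 with a matched symbol.

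Cells with at least 50000 gene reads were kept, 46 per gate, leaving 1 out of each. Doublets were not called, since wells held single sorted cells, and 0 pairs of cells had identical counts. Prss34 was scaled to all gene reads and other genes to gene reads without Prss34. Genes needed reads in at least 10 of 46 cells, the pseudocount was 1 CPM, and called means at least 2-fold. For detection, each cell was thinned to 200000 reads without replacement, and 0 cells were too shallow. The members and 19 gene lists were chosen with earlier results of these data known. Named genes were list members and 12 genes a direction with at least 10 CPM and a read in 50% of cells of the higher group, and the same sign by mean CPM, summed reads and without the top cell, ranked by the smallest of the 3 differences. Cell sets had no test, since mice are not assigned to cells. Calculations were tested on simulated data. Gene positions are from GENCODE on GRCm38. Values were computed in R 4.3.3 (scran 1.30.0, edgeR 4.0.16) and Python 3.11.15 with pandas 2.3.3, numpy 2.4.6, scipy 1.17.1 and matplotlib 3.10.9.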

Additional observations from a re-analysis of the deposited data

How the results depend on the processing

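With called genes numbering 1224 higher and 1405 lower, a pseudocount of 10 CPM gave 708 and 775, and no filter on low genes gave 2666 and 2902. Median per-cell CPM gave 2894 higher, the 12 lowest against the 12 highest gave 2025 higher, and the 5 lowest gave 2467 lower. The cause was not tested beyond fewer or more genes passing each setting. Leaving out each low cell in turn gave 1210 to 1290 higher and 1306 to 1559 lower.

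The median of the granule list was -1.99 with the 5 lowest cells, and that of the immediate early list -1.79. The mature basophil median was -0.34 with median per-cell CPM and -0.20 with the 16 lowest cells, and the ribosome biogenesis median 2.54 with median per-cell CPM. With the 16 lowest cells C3ar1 was at 0.053, Ccl6 at 1.74, Ccr2 at 2.05, Gfi1 at 0.82 and Il7r at 0.85, reversed in sign. Against the 12 highest, Ccl6 was at 0.76 and Gata1 at 0.38. Gata1 was at 0.23 with the 5 lowest, and Jun at -0.52 with the 8 lowest. For single genes of the 12-cell comparison, 1768 alternative values moved less than the spread between cells, 62 moved more and 10 changed sign.

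Leaving out each of the 12 gave list medians of -1.32 to -1.005 (granule), -1.14 to -0.94 (IgE receptor), -0.67 to -0.34 (identity), -1.87 to -1.54 (mature), 1.09 to 1.41 (progenitor), -0.45 to -0.22 (primary granule), -0.65 to -0.24 (S phase), -0.26 to 0.46 (G2/M), 0.65 to 0.77 (ribosome biogenesis), -0.40 to 0.04 (immediate early) and -0.36 to -0.20 (lineage factors). The G2/M and immediate early medians therefore changed sign with single cells. Genes detected differed by 702 to 960, S phase genes by 2 to 4 and G2/M genes by 3 in each case.

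For the 5 lowest cells, leaving out each in turn gave 1541 to 1691 higher and 2227 to 2949 lower genes. List medians were -2.20 to -1.79 (granule), -1.68 to -1.21 (IgE receptor), -1.67 to -0.89 (identity), -3.53 to -1.91 (mature), 1.75 to 1.98 (progenitor), -0.62 to 0.02 (primary granule), -1.66 to -1.10 (S phase), 0.41 to 1.33 (G2/M), 0.26 to 0.72 (ribosome biogenesis), -2.05 to -1.48 (immediate early) and -0.32 to -0.11 (lineage factors). Over all genes the median moved from -0.07 to -0.22 by scran size factors and to 0.15 by ERCC reads. Of 88 genes followed, leave-one-out ranges of the 5 crossed 0 for 10: Cx3cr1 (-0.49 to 3.32), Elane (-0.52 to 1.72), Hist1h2be (-0.39 to 2.45), Vwf (-0.32 to 3.26), Gata1 (-0.18 to 0.48), Hdc (-0.53 to 0.25), Jun (-0.46 to 0.48), Mpo (-0.40 to 0.44), Runx1 (-0.30 to 0.17) and Xist (-0.030 to 0.44). Ranges of the 12 crossed 0 for 4: Elane (-0.37 to 0.76), Hdc (-0.18 to 0.095), Il18r1 (-1.09 to 0.20) and Itga2 (-0.99 to 0.029).

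Without the 5 cells high in mitochondrial share the 12-cell counts were 1334 higher and 1749 lower, Vwf was at -0.060, and the primary granule, S phase, ribosome biogenesis and lineage factor medians were -0.15, -0.62, 0.79 and -0.41. With cells 40 and 41 alone the counts were 1867 and 3433, the median of all genes was -0.19, the medians of the granule, IgE receptor and G2/M lists were -1.39, -2.09 and -3.80, and Cx3cr1, Hist1h2be and Vwf were at -2.11, -4.26 and -0.69. The cause was not tested.

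The split into 5 and 41 cells, leaving out cells 1 and 2 or the cells high in mitochondrial share, and leaving out CD34-negative cell 10 were chosen after seeing the data. A filter at 200000 reads kept the same cells and tested nothing. No paired analysis was possible because title numbers only name single cells and no result came from a test. With 1 gate as 1 sample and 12 or 5 low cells, the differences have no replicate check, and genes near 0 reads cannot be ranked.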

Other observations

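The CD34-positive cell with too few reads, cell 3, held 31504 gene reads and stood in no comparison. Its Prss34 level was 53644 CPM from 1690 reads, which would have placed it at rank 20 if kept. Mcpt8 was at 32770 CPM, Cd200r3 at 1040 CPM and Mpo at 3321 CPM, while Kit and Cd34 had 0 reads at this depth.

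Tpsab1, a mast cell tryptase gene, reached 302 CPM and Prg2, an eosinophil granule gene, 1518 CPM in single cells of the other 34, whose Prss34 was not low. In the 12 low cells Tpsab1 had 0 reads and Prg2 reached 2.20 CPM.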
